A study of Mus musculus with 19 samples.

Results

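The 9 genes described here, *Mrc1*, *Cd163*, *Lyve1*, *Pf4*, *F13a1*, *Ms4a7*, *Cbr2*, *Clec10a* and *Siglec1*, are markers of border-associated macrophages. They were taken by symbol from the 56980 genes of the count table, where all 9 were found, and the choice was made with earlier results of these data known. RNA was sequenced from MACS-isolated CD11b+ cells, which are cells pulled from the dissociated brain with magnetic beads against the myeloid integrin CD11b, from 19 male mice of 3 to 4 months. Both *PARK7*/DJ-1 KO mice and their wildtype littermates received a single intraperitoneal injection of LPS (*E. coli* O55:B5, 4 µg/g body weight) or of PBS as vehicle and were perfused 6 h later. There were 5 KO and 5 wildtype mice with LPS and 5 KO and 4 wildtype mice with PBS, 1 library each. The KO is a gene trap in *Park7*, B6;129P2-*Park7* Gt(XE726)Byg/Mmucd, backcrossed to C57BL/6NCrl, and it is present in every cell of the mouse, so that macrophages, microglia and peripheral cells all carry it. Olfactory bulb and cerebellum were removed before dissociation. The authors' label for the cells is primary microglia.

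Border-associated macrophages live in the meninges, the choroid plexus and the spaces around blood vessels, outside the brain parenchyma that microglia occupy. They carry scavenger and lectin receptors with which they sample cerebrospinal fluid and vessel walls, and they take up debris, iron-bearing haemoglobin and glycosylated ligands. Like microglia they express CD11b, so a CD11b enrichment of whole brain collects both.

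Total counts per library ranged from 11936364 to 22788884, and 3 counts corresponded to 0.138 to 0.256 CPM, the counts scaled to library size after TMM normalization, a limit that covers counting error only. *Park7* lay between 20.5 and 32.1 CPM in the 9 wildtype libraries and between 0.457 and 5.38 CPM in the 10 KO libraries. Each of the 9 markers had at least 45 counts in every library and all passed the filter on low counts. Of the 12 homeostatic microglial genes of a comparison list, 11 were found by symbol, and their summed CPM was 28261 to 45649 in the PBS libraries. The 9 markers summed to 524 to 702 CPM in the same libraries. The libraries thus held transcripts of both cell types, and fewer border-associated macrophages and less RNA per macrophage cannot be told apart in the level of a single marker. The summed CPM of 9 neuronal, astrocyte and oligodendrocyte genes stood apart in the highest library of each group, wildtype PBS replicate 2, wildtype LPS replicate 2, KO PBS replicate 1 and KO LPS replicate 1, at 2425 to 3682 CPM. The other libraries lay between 288 and 1615 CPM. Without those 4 libraries, an alternative chosen after seeing the data, every count of called markers within a genotype, between genotypes and in the interaction was the same, and the count averaged over the genotypes went from 6 to 5 lower.

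At baseline the markers differed in level, here given as RPKM, the CPM per kilobase of the gene's merged exons. In wildtype PBS mice *Mrc1*, the mannose receptor CD206, was highest with 40.4 ± 4.94 RPKM (SD, n = 4). *F13a1*, the A subunit of coagulation factor XIII, followed with 20.0 ± 1.28 RPKM and *Cbr2*, a carbonyl reductase, with 18.6 ± 1.22 RPKM, and these neighbours overlapped. *Cd163*, the scavenger receptor for haemoglobin bound to haptoglobin, had 11.1 ± 1.18 RPKM and overlapped with neither *Cbr2* above it nor *Lyve1* below it. The other five lay close together. *Lyve1*, a receptor for hyaluronan, had 6.90 ± 0.639 RPKM, *Pf4*, the chemokine CXCL4, had 6.27 ± 0.511 RPKM and *Clec10a*, a lectin that binds galactose-type sugars, had 6.02 ± 0.909 RPKM. *Siglec1*, the sialic acid-binding lectin CD169, had 5.01 ± 0.637 RPKM and *Ms4a7*, a membrane protein of the MS4A family, had 4.29 ± 0.739 RPKM, and from *Lyve1* to *Ms4a7* each gene overlapped with the next. In KO PBS mice the order was the same apart from *Pf4* and *Lyve1*, which exchanged places and overlapped.

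LPS divided the 9 markers. In wildtype mice 5 were lower after LPS by edgeR's quasi-likelihood test over 18739 genes, called at an adjusted p below 0.05 with a |log2FC| no smaller than 0.5, against 17.4% of all genes tested. Only *Siglec1* was higher, against 18.4% of all genes. In KO mice the counts were again 5 lower, against 19% of all genes, and 1 higher, against 20.1%, and they were the same genes. The 5 were *Cd163*, *Lyve1*, *Ms4a7*, *Cbr2* and *Clec10a*, while *Mrc1*, *Pf4* and *F13a1* did not pass in either genotype. For the same 5 genes every LPS library lay below every PBS library in both genotypes, which held for 17% of all genes in wildtype and 16.6% in KO mice. For *Siglec1* every LPS library lay above every PBS library in both, which held for 20.8% and 16.2% of all genes. The median log2FC of the 9 markers was -0.94 in wildtype and -1.08 in KO mice, beside -0.06 and -0.01 for all genes tested.

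**Figure D1:**
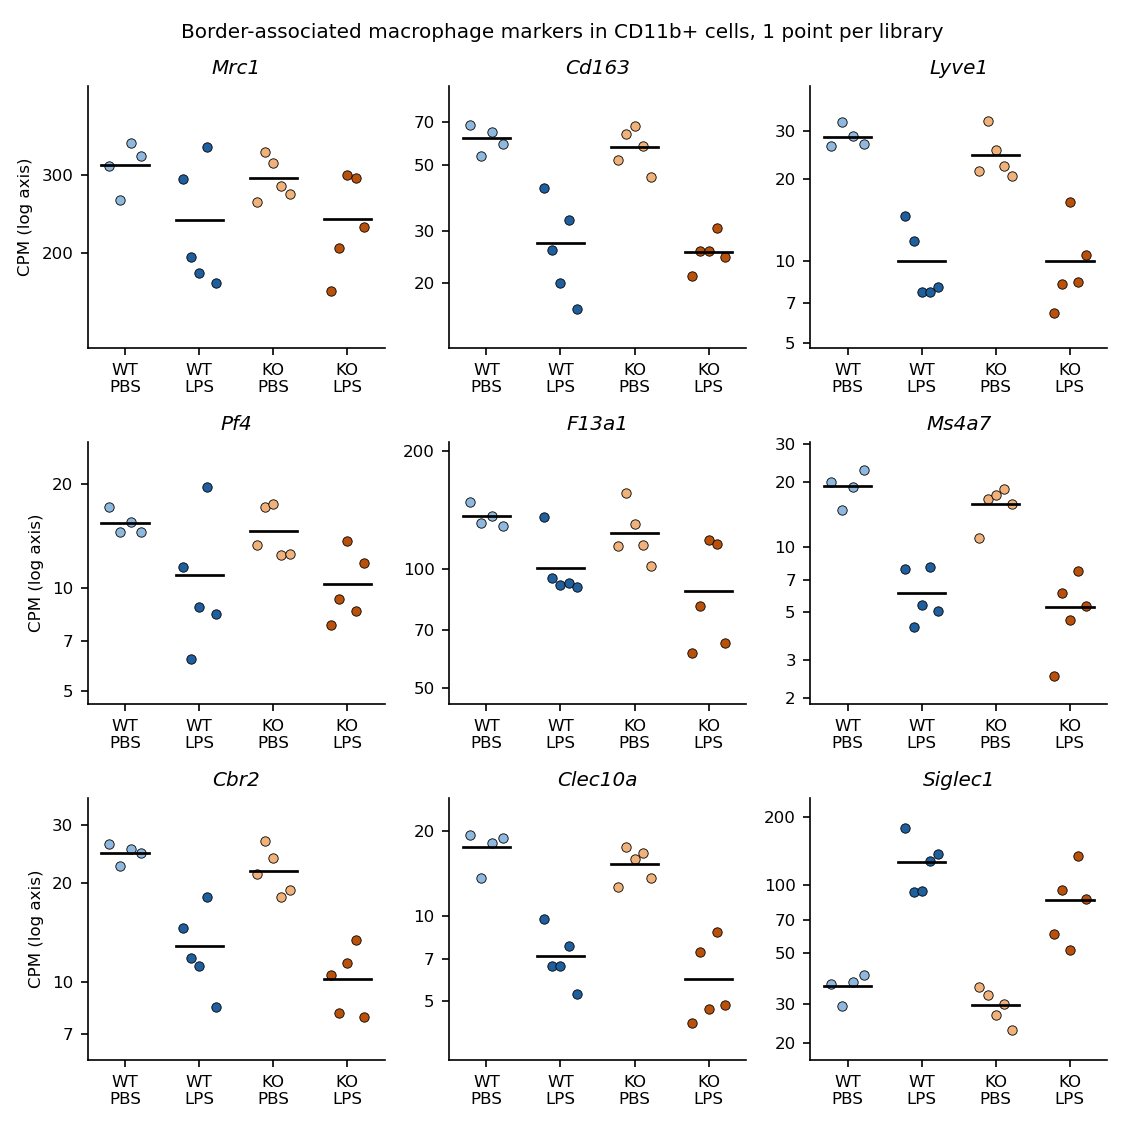
CPM (log axis) of the 9 markers in wildtype (WT) and KO mice with PBS or LPS, with 1 point per library in replicate order and a line at the group mean. The LPS points of *Cd163*, *Lyve1*, *Ms4a7*, *Cbr2* and *Clec10a* all lie below, and those of *Siglec1* all above, the PBS points of the same genotype, whereas those of *Mrc1*, *Pf4* and *F13a1* overlap with them.

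*Siglec1*, which is also known as an interferon-inducible gene, was the marker that rose. In wildtype PBS mice it had 36.6, 29.3, 37.3 and 39.9 CPM and in wildtype LPS mice 179, 93.6, 93.8, 128 and 137 CPM. In KO mice it had 35.6, 32.6, 26.7, 29.9 and 22.8 CPM with PBS and 60.8, 95.4, 51.5, 135 and 86.7 CPM with LPS. The LPS libraries were spread more widely than the PBS libraries, and the lowest of them, KO LPS replicate 3, was still above every PBS library. The log2FC was 1.82 (SE 0.25, adjusted p = 9.41e-06), a 3.53-fold increase, in wildtype and 1.54 (SE 0.23, adjusted p = 1.89e-05), a 2.91-fold increase, in KO mice. By RPKM *Siglec1* moved from the eighth place among the 9 markers to the second in wildtype LPS mice (17.7 ± 4.99 RPKM, n = 5) and to the third in KO LPS mice (12.02 ± 4.59 RPKM, n = 5), overlapping in both with the genes directly above and below it. The 12 interferon-stimulated genes of the comparison list were all called higher after LPS in each genotype, and their summed CPM went from 78.9 to 104 in the PBS libraries to 1205 to 3085 in the LPS libraries. In replicate order that sum was 1257, 1205, 1614, 3039 and 2618 CPM in wildtype LPS and 1241, 1367, 3085, 1618 and 1421 CPM in KO LPS mice. KO LPS replicate 3 had the highest sum and the lowest *Siglec1* of the LPS libraries, and wildtype LPS replicate 1 had the highest *Siglec1* with one of the lowest sums. Wildtype LPS replicates 4 and 5, with the next highest sums, had 128 and 137 CPM of *Siglec1*. Wildtype LPS replicate 3 and KO LPS replicate 4 had nearly equal sums, with 93.8 and 135 CPM of *Siglec1*. A relation of this sum to *Siglec1* was not tested.

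*Ms4a7* fell furthest. It had 20.0, 14.8, 19.03 and 22.7 CPM in wildtype PBS and 7.92, 4.27, 5.41, 8.12 and 5.03 CPM in wildtype LPS mice. In KO mice it had 11.0, 16.6, 17.4, 18.5 and 15.8 CPM with PBS and 2.53, 6.11, 4.60, 7.71 and 5.34 CPM with LPS. The log2FC was -1.63 (SE 0.26, adjusted p = 5.17e-05) in wildtype and -1.59 (SE 0.25, adjusted p = 3.72e-05) in KO mice. Its lowest library, KO LPS replicate 1 with 45 counts, is the one with the highest sum of neuronal and glial genes.

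Among the scavenger and lectin receptors, *Lyve1* had 26.6, 32.4, 28.9 and 26.9 CPM in wildtype PBS mice and 14.7, 11.8, 7.70, 7.66 and 8.01 CPM in wildtype LPS mice. The KO values were 21.4, 32.7, 25.7, 22.4 and 20.6 CPM with PBS and 6.46, 8.22, 16.6, 8.38 and 10.5 CPM with LPS. Wildtype LPS replicates 1 and 2 and KO LPS replicate 3 were the highest of their groups and remained below every PBS library. The log2FC was -1.52 (SE 0.25, adjusted p = 5.71e-05) in wildtype and -1.29 (SE 0.24, adjusted p = 1.62e-04) in KO mice.

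*Cd163* had 68.7, 53.8, 64.9 and 59.2 CPM in wildtype PBS and 41.8, 25.9, 20.0, 32.6 and 16.3 CPM in wildtype LPS mice. In KO mice it had 52.2, 63.6, 67.9, 58.3 and 45.5 CPM with PBS and 21.1, 25.6, 25.6, 30.6 and 24.5 CPM with LPS. The wildtype LPS libraries varied most, with replicate 1 the highest. The log2FC was -1.17 in both genotypes (SE 0.21, adjusted p = 1.28e-04 in wildtype and SE 0.20, adjusted p = 6.57e-05 in KO mice).

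*Clec10a* had 19.3, 13.6, 18.1 and 18.8 CPM in wildtype PBS and 9.71, 6.63, 6.62, 7.79 and 5.28 CPM in wildtype LPS mice. The KO values were 12.6, 17.5, 15.8, 16.6 and 13.5 CPM with PBS and 4.16, 7.42, 4.66, 8.77 and 4.83 CPM with LPS. The fall was 2.42-fold in wildtype (log2FC -1.27, SE 0.22, adjusted p = 1.14e-04) and 2.55-fold in KO mice (log2FC -1.35, SE 0.21, adjusted p = 3.27e-05). *Mgl2*, the close paralog of *Clec10a* in the mouse galactose-type lectin family, also fell, with a log2FC of -2.55 (SE 0.20) in wildtype and -2.09 (SE 0.19) in KO mice, and reads that both genes could share would make either value uncertain.

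The enzyme gene *Cbr2* had 26.3, 22.5, 25.3 and 24.7 CPM in wildtype PBS and 14.7, 11.8, 11.2, 18.2 and 8.43 CPM in wildtype LPS mice. In KO mice it had 21.3, 26.8, 23.7, 18.1 and 19.05 CPM with PBS and 10.5, 8.11, 11.5, 13.4 and 7.86 CPM with LPS. It showed the smallest change of the 5 genes that fell, 1.92-fold in wildtype (log2FC -0.94, SE 0.20, adjusted p = 7.67e-04) and 2.12-fold in KO mice (log2FC -1.08, SE 0.19, adjusted p = 1.08e-04).

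*Mrc1* did not pass in either genotype. It had 315, 264, 355 and 331 CPM in wildtype PBS and 294, 196, 181, 348 and 171 CPM in wildtype LPS mice. The KO values were 260.5, 339, 320.5, 284 and 273 CPM with PBS and 164, 205, 301, 297 and 229 CPM with LPS. In each genotype 3 of 5 LPS libraries lay below all PBS libraries and 2 lay among them. The log2FC was -0.41 (95% interval -0.84 to 0.02, adjusted p = 0.122) in wildtype and -0.30 (95% interval -0.71 to 0.10, adjusted p = 0.221) in KO mice. Without wildtype LPS replicate 4, the highest of its group, *Mrc1* was called lower in wildtype mice, with a log2FC of -0.59.

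The secreted factors did not pass in either genotype taken alone. *F13a1* had 148, 131, 137 and 129 CPM in wildtype PBS and 136, 95.2, 91.5, 92.1 and 90.0 CPM in wildtype LPS mice. In KO mice it had 115, 156, 130.0, 115 and 102 CPM with PBS and 61.5, 80.8, 119, 116 and 65.0 CPM with LPS. Wildtype LPS replicate 1 alone lay among the PBS libraries, and without it *F13a1* was called lower, with a log2FC of -0.56 in place of -0.43 (SE 0.19, adjusted p = 0.0720). With all libraries it was also called when at least 10 counts were asked of every library, with a log2FC of -0.50. In KO mice the log2FC was -0.48 (SE 0.18, adjusted p = 0.0321), below the fold threshold, and the gene was called when any of KO PBS replicates 1, 4 and 5 or KO LPS replicates 3 and 4 was left out, with a log2FC from -0.51 to -0.61, and with either other filter on low counts (-0.51 and -0.53). *Pf4* had 17.2, 14.5, 15.6 and 14.5 CPM in wildtype PBS and 11.5, 6.17, 8.78, 19.7 and 8.35 CPM in wildtype LPS mice. In KO mice *Pf4* had 13.3, 17.2, 17.6, 12.4 and 12.5 CPM with PBS and 7.75, 9.25, 13.7, 8.55 and 11.8 CPM with LPS. Wildtype LPS replicate 4 was above all PBS libraries of its genotype and the other four were below them. The log2FC was -0.50 (SE 0.26, adjusted p = 0.133) in wildtype and -0.52 (SE 0.25, adjusted p = 0.0949) in KO mice, and it was called without wildtype LPS replicate 4 (-0.83) or KO LPS replicate 3 (-0.64). *Pf4* is also a platelet gene. Of the 6 platelet genes of a comparison list, *Ppbp*, *Gp1ba*, *Gp1bb* and *Gp5* had at most 14, 5, 1 and 8 counts in any library. *Itga2b* had 10 to 77 counts and was called higher after LPS in both genotypes. *Gp9* had 67 to 530 counts and was called lower in both, from a mean of 16.4 to 6.11 CPM in wildtype and of 16.6 to 6.00 CPM in KO mice. The part of platelet RNA in the *Pf4* values was not tested. *Lyve1* is also a gene of lymphatic endothelium. Of 4 genes listed for those cells *Ccl21a* had 0 counts in all 19 libraries, below the limit of 3 counts in each, and *Mmrn1* had 0 counts in 13 of them and at most 30 in the others. *Flt4* had 23 to 751 and *Prox1* 341 to 741 counts, with neither called after LPS. The part of such cells in the *Lyve1* values was not tested.

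The response averaged over the genotypes rests on all 19 libraries, and its calls for the markers were added after their values were seen. By edgeR 6 markers were lower, against 22.3% of all genes tested, and 1 was higher, against 21.8%. The sixth was *Pf4*, with a log2FC of -0.51 (SE 0.18, adjusted p = 0.0204), just past the fold threshold. It was no longer called without wildtype PBS replicate 1, without wildtype LPS replicate 2, 3 or 5, without KO PBS replicate 2 or 3 or without KO LPS replicate 1, 2 or 4, with a log2FC of -0.42 at the nearest to 0. It was also not called without mitochondrial and ribosomal RNA genes (-0.49) or without the 4 libraries highest in neuronal and glial genes (-0.43). *F13a1* (-0.46, SE 0.13, adjusted p = 0.00507) and *Mrc1* (-0.36, SE 0.14, adjusted p = 0.0384) passed the p threshold in the average and not the fold threshold. *F13a1* was called without wildtype LPS replicate 1 or KO LPS replicate 3 (-0.52 each) and with at least 10 counts in every library (-0.52).

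**Figure D2:**
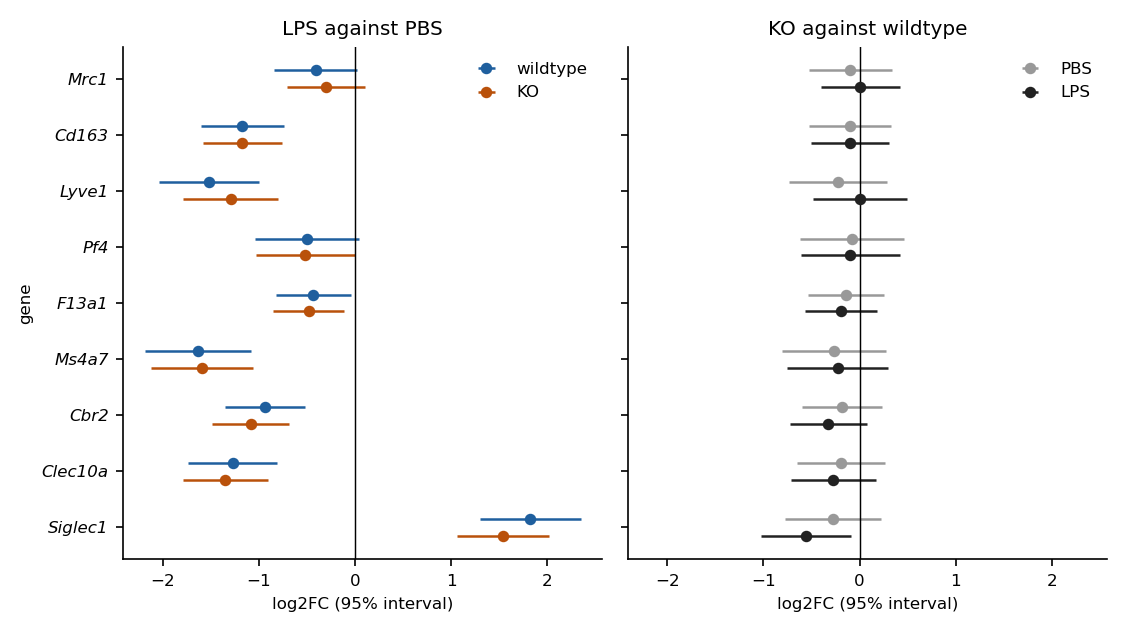
Log2FC with 95% interval (edgeR) of each marker for LPS against PBS in wildtype and KO mice (left) and for KO against wildtype mice with PBS and with LPS (right). On the left the intervals of *Mrc1* and of wildtype *Pf4* reach 0 and *Siglec1* alone lies to the right, and on the right every interval except that of *Siglec1* after LPS holds 0.

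Each of the other markers was also expressed as a percentage of the *Mrc1* counts in the same library. These ratios do not depend on library size, they are not per length, and they are given as descriptions with no test. They also move with *Mrc1* itself, which had a log2FC of -0.41 in wildtype and -0.30 in KO mice after LPS. Other cells can hold RNA of some markers, so a ratio does not describe border-associated macrophages alone. *F13a1* went from 43.6 ± 5.72% (SD, n = 4) with PBS to 44.9 ± 10.6% (n = 5) with LPS in wildtype and from 41.7 ± 3.34% to 36.7 ± 4.77% (n = 5 each) in KO mice, with overlapping libraries. *Pf4* also overlapped, with 4.93 ± 0.638% and 4.49 ± 0.976% in wildtype and 4.92 ± 0.444% and 4.36 ± 0.867% in KO mice. Neither gene thus separated LPS from PBS libraries relative to *Mrc1*. *Cd163* went from 19.6 ± 1.86% to 11.5 ± 2.17% in wildtype and from 19.4 ± 1.78% to 11.0 ± 1.75% in KO mice. *Ms4a7* went from 6.04 ± 0.683% to 2.63 ± 0.364% and from 5.37 ± 0.862% to 2.19 ± 0.645%. *Lyve1* went from 9.25 ± 2.03% to 4.44 ± 1.41% and from 8.26 ± 0.810% to 4.17 ± 0.980%. For these 3 genes and for *Clec10a* the LPS and PBS libraries did not overlap in either genotype, while *Cbr2* separated in wildtype mice and overlapped in KO mice, where KO LPS replicate 1 had 6.40% and KO PBS replicate 4 had 6.37%. *Siglec1* went from 11.3 ± 0.665% to 55.6 ± 16.3% in wildtype and from 10.1 ± 2.19% to 36.8 ± 11.8% in KO mice.

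**Figure D3:**
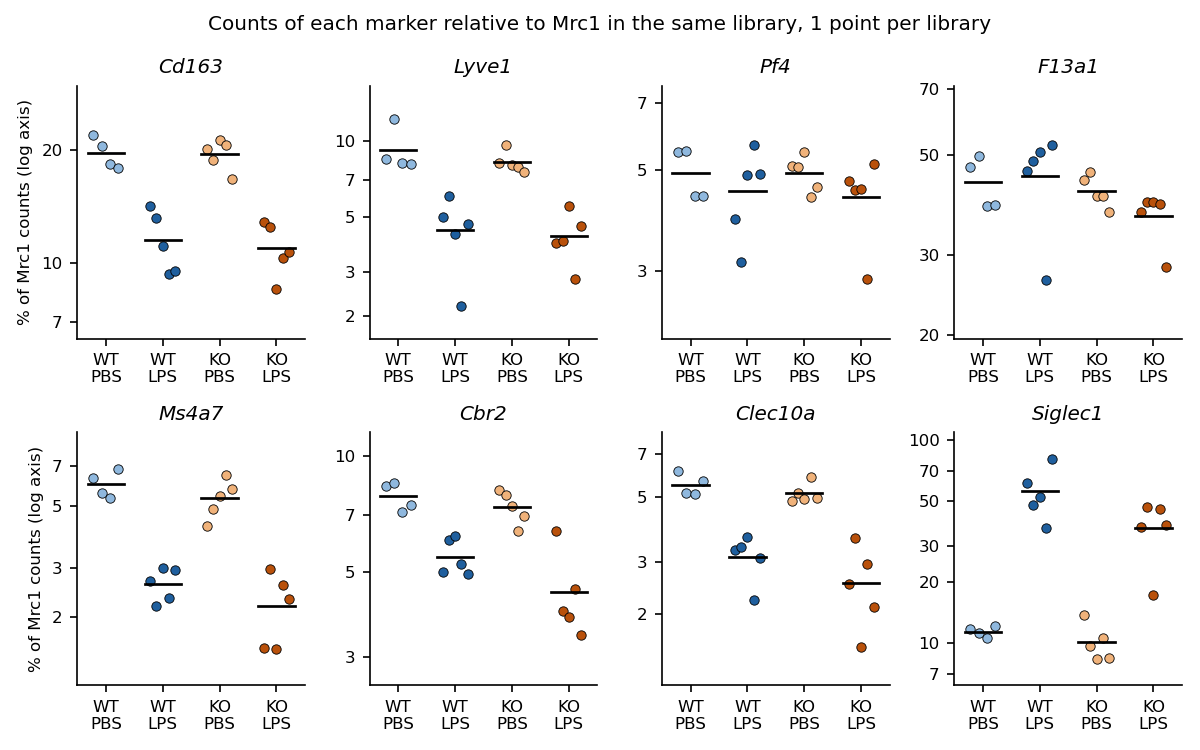
Counts of each marker as a percentage of the *Mrc1* counts of the same library (log axis) in the 4 groups, with 1 point per library and a line at the group mean. *F13a1* and *Pf4* overlap between PBS and LPS, *Cd163*, *Lyve1*, *Ms4a7* and *Clec10a* are lower with LPS, and *Siglec1* is higher.

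The region before each start site was searched for the letters of 3 elements that are known from macrophage and interferon-responsive genes, on both strands. The regions were the 250 bases before the start of the Ensembl canonical transcript on GRCm39, read from the genome, for 21751 protein-coding genes. For *Clec10a*, *Pf4* and *F13a1* this region lies inside the annotated gene, and the bases before its outermost start were not searched. The interferon-stimulated response element was searched as GAAA repeated after 2 bases of any kind, the interferon-gamma-activated site as TTCNNNGAA and the core of the binding site of the myeloid factor PU.1 as GAGGAA. The interferon-stimulated response element was found before 3.32% of all genes, 6 of the 12 interferon-stimulated genes and 0 of the 9 markers, *Siglec1* included. TTCNNNGAA was found before 7.7% of all genes, 1 of the 12 and 0 of the 9. GAGGAA was found before 22.9% of all genes, 2 of the 12 and 2 of the 9, *Mrc1* and *Clec10a*. The regions of *Mrc1* (chr2:14233901-14234150, plus strand), which had the highest level, of *Clec10a* (chr11:70057218-70057467, plus strand), which fell, and of *Siglec1* (chr2:130928686-130928935, minus strand), which rose, are shown 5′ to 3′ up to the base before the start, with GAGGAA or its complement in capitals.
Mrc1: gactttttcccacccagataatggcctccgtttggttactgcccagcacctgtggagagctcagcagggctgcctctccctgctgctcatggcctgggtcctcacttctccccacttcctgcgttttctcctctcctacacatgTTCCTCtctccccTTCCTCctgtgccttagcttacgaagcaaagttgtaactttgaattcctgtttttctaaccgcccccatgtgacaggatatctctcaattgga
Clec10a: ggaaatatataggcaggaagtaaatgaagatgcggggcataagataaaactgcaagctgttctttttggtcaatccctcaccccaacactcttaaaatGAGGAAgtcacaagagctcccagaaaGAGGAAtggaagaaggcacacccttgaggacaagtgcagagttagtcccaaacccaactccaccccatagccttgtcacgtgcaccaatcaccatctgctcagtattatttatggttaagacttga
Siglec1: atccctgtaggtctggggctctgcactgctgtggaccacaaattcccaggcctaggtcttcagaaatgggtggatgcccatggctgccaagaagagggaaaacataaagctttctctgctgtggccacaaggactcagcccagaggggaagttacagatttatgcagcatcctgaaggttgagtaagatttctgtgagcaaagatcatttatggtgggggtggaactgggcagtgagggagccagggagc
Capitals stand at -106 and -93 in *Mrc1* and at -152 and -126 in *Clec10a*, as the position of the first base relative to the start, and the *Siglec1* region has none. A match is a description of these letters only.

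The genotypes were compared with the thresholds of the study for this contrast, which are an unadjusted p below 0.05 and again a |log2FC| no smaller than 0.5. With LPS, 1 of the 9 markers was called lower in KO mice, against 0.763% of all genes tested, and none was called higher, against 0.544%. It was *Siglec1*, at 85.8 ± 32.8 CPM in KO and 126 ± 35.6 CPM in wildtype LPS mice (SD, n = 5 each), with a log2FC of -0.56 (SE 0.22, 95% interval -1.03 to -0.09, edgeR's unadjusted p = 0.0227, adjusted p = 1). The groups overlapped, and 3 of 5 KO libraries, replicates 1, 3 and 5, lay below all wildtype libraries. The call was lost when wildtype LPS replicate 1, the highest library, was left out (log2FC -0.40), and without KO LPS replicate 1 (-0.45) or KO LPS replicate 3 (-0.42). It was also lost when only these 10 libraries were fitted, with the same log2FC of -0.56 but an unadjusted edgeR p above 0.05. The library with the highest neuronal and glial sum, KO LPS replicate 1, is among the low ones, and without the 4 libraries highest in those genes the log2FC was -0.54 and *Siglec1* was still called. The other 8 markers had log2FC values from -0.32 for *Cbr2* (95% interval -0.72 to 0.07) to 0.01 for *Mrc1* (95% interval -0.40 to 0.42) and overlapped between genotypes. For *F13a1* and *Clec10a*, too, 3 of 5 KO libraries lay below all wildtype libraries. With 1 library left out *Cbr2* ranged from -0.44 to -0.17, below the fold threshold, with edgeR's unadjusted p under 0.05 in 2 of 10 fits. *Clec10a* ranged from -0.45 to -0.14, with 1 such fit of 10. The list of 8 monocyte genes, of which none was called between genotypes, had a summed CPM of 419 to 758 in wildtype and 267 to 736 in KO LPS libraries, and its median log2FC was -0.41. Of the 12 interferon-stimulated genes none was called either, with 11 of the 12 log2FC values below 0 and a median of -0.22, beside 0.02 for all genes tested. Among them *Irf7* (edgeR's unadjusted p = 0.00877) and *Isg15* (edgeR's unadjusted p = 0.0335), named here after their values were seen, each had a log2FC of -0.47, past the p threshold and below the fold threshold. The part of either list in the *Siglec1* difference was not tested.

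With PBS, 0 of the 9 markers was called lower in KO mice, against 0.576% of all genes, and 0 higher, against 0.224%. At an unadjusted edgeR p-value under 0.05 the count was also 0, and it was 0 with DESeq2. All 9 log2FC values were below 0, from -0.28 for *Siglec1* (95% interval -0.78 to 0.23) to -0.08 for *Pf4* (95% interval -0.62 to 0.46), and the libraries of the genotypes overlapped for every marker. Markers of 1 cell type share their libraries, so that 9 values below 0 are not 9 independent observations.

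The interaction term compared the LPS response of KO mice with that of wildtype mice. At an unadjusted p-value under 0.05 none of the 9 markers had a log2FC after LPS that was higher in KO mice, against 0.502% of all genes, and none one that was lower, against 0.459%, DESeq2 also called none, and the adjusted p-value was 1 for each of them. The differences in log2FC ranged from -0.28 for *Siglec1* (95% interval -0.97 to 0.41) to 0.23 for *Lyve1* (95% interval -0.48 to 0.94). Intervals of this width do not show that the responses were alike. With 1 library left out the difference for *Siglec1* ranged from -0.51 to -0.12, and under the other alternatives from -0.30 to -0.08.

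A list of 21 other genes known from border-associated macrophages was read beside the 9. All 21 were tested. In wildtype mice 13 were lower after LPS, against 17.4% of all genes tested, and 4 higher, against 18.4%. In KO mice 12 were lower, against 19%, and 5 higher, against 20.1%. The median log2FC of the 21 was -1.18 in wildtype and -1.19 in KO mice. In each direction the genes with the smallest p-values for the response averaged over the genotypes are given. Those that fell were *Slc40a1*, the iron exporter ferroportin, with a log2FC of -3.47 (SE 0.26) in wildtype and -3.71 (SE 0.26) in KO mice, and *Mgl2*. Those that rose were *Cd38*, an NAD-consuming ectoenzyme, with 2.96 (SE 0.21) and 2.86 (SE 0.19), and *Ms4a4a*, a relative of *Ms4a7*, with 2.78 (SE 0.25) and 2.60 (SE 0.23). *Ms4a4a* and *Ms4a7* therefore went opposite ways. Microglia also express several genes of this list, so its values are not those of border-associated macrophages alone. Between genotypes 1 of the 21 was called, higher in KO mice with LPS, against 0.544% of all genes tested. It was *Cd209g*, a C-type lectin named here after its values were seen, with 0 to 4 counts in wildtype and 2 to 11 counts in KO LPS libraries. *Cd209g* was also the only one of the 21 called in the interaction, against 0.502% of all genes. At so few counts the fold change of *Cd209g* cannot be given with useful precision.

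Other cell types were read from their own lists in the same way. The shares of all genes to set beside these counts were 17.4% lower and 18.4% higher in wildtype and 19% lower and 20.1% higher in KO mice. All 11 homeostatic microglial genes were lower after LPS in both genotypes, and their sum fell to 11948 to 19103 CPM in the LPS libraries. All 8 monocyte genes were higher in both genotypes, with sums of 31.1 to 76.4 CPM in the PBS and 267 to 758 CPM in the LPS libraries. Of 8 neutrophil genes 4 were higher in wildtype and 5 in KO mice and 0 lower, with sums of 20.9 to 185 CPM in the PBS and 99.9 to 452 CPM in the LPS libraries. The monocyte genes and part of the neutrophil genes were thus higher after LPS, while *Ly6g*, *Ngp* and *Camp* were called in neither genotype. The part of blood myeloid cells in the values of *Siglec1* and of the markers that fell was not tested. Of 6 endothelial genes 2 were lower in each genotype, and 0 were higher in wildtype and 1 in KO mice. Of 6 fibroblast genes 1 was lower in each, and of 9 neuronal and glial genes 1 was higher in each. Of 6 dendritic cell genes 4 were tested, and 1 was higher and 2 lower in each genotype. Of 8 lymphocyte genes 2 were tested and 1 was lower in each, and the T cell genes *Cd3e*, *Cd3d* and *Cd3g* had at most 3 counts in any library. Of 6 platelet genes 2 were tested, 1 higher and 1 lower in each, and of 4 lymphatic endothelial genes 2 were tested and neither was called.

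The markers were also compared with each other within groups. After the mean log2 CPM of each group was subtracted, 35 of the 36 pairs of markers had a positive Pearson's r over the 19 libraries, with a median of 0.50 and a range from -0.07 to 0.83, and 18 pairs were above 0.5. The closest pair was *Ms4a7* and *Clec10a* (0.83), followed by *Mrc1* and *Cd163* (0.80). *Mrc1* had the highest mean r with the other eight markers (0.64) and *Lyve1* the lowest (0.29). *Siglec1* went with *Clec10a* (0.69) and *Ms4a7* (0.61) and not with *Lyve1* (-0.07) or *Pf4* (0.09). The same counts over pairs of all genes were not computed, so these values cannot be read as particular to the markers. These libraries also share depth and content. The mean of the 9 standardised residuals had an r of 0.49 with the total counts of the library, of -0.46 with the summed neuronal and glial genes, of 0.36 with the summed monocyte genes, of 0.21 with the summed homeostatic microglial genes and of 0.13 with the summed interferon-stimulated genes. All are descriptions over 19 libraries and carry no p-value.

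**Figure D4:**
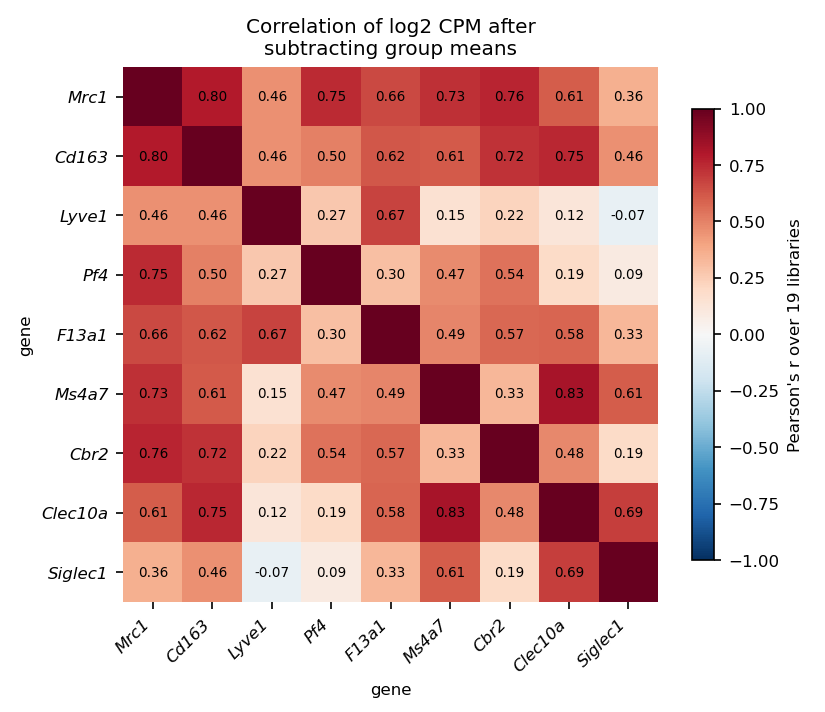
Pearson's r between the markers' log2 CPM over 19 libraries after subtraction of each group's mean, from -1 (blue) to 1 (red). *Mrc1* and *Cd163* are positive with every other marker, and the pale cells of *Lyve1* and *Pf4* with *Siglec1* hold the values nearest to 0, -0.07 and 0.09.

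By the same measure the gene most like *Cbr2* among all 18739 tested was *Fcna* (r = 0.90), a ficolin of the list of other border-associated macrophage genes, and *Tgfbi*, from the same list, was the third for *F13a1* (0.84). *Dnase1l1* (0.89) and *Trappc1* (0.85) preceded it there, and *Bckdha* (0.84) and *Siae* (0.83) followed *Fcna*. For *Clec10a* the third was *Ms4a7* (0.83), after *Fkbp3* (0.89) and *Senp7* (0.86). *Fkbp3* (0.88) was also the second for *Ms4a7*, between *Zfand6* (0.89) and *Ndufb4b* (0.87). *Hbp1* (0.85), *Gm56654* (0.85) and *Igf1* (0.85) were nearest to *Mrc1*, and *Iars2* (0.87), *Slc17a5* (0.86) and *Cyb5r1* (0.83) to *Cd163*. *Ifi27l2a*, an interferon-inducible gene, was nearest to *Siglec1* (0.83), before *Srbd1* (0.78) and *Arid3a* (0.77). *Lyve1* was closest to *Abl2* (0.88), *Maml2* and *Tbc1d14* (0.84), and *Pf4* to *Tmem106a*, *B9d2* and *H3f3b* (0.83 each). The gene nearest to the mean of all 9 markers was *Slc17a5* (0.89), the lysosomal exporter of sialic acid, with 156 to 956 counts per library. *Cd28* (0.84), *Gm56654* (0.84), *Pnrc2* (0.83) and *Hbp1* (0.82) came next, of which *Cd28* had a median of 6 counts and *Gm56654* of 7, so that their values rest on few reads. *Fgl2*, *Cd209c*, *2610008E11Rik*, *Zfp442* and *Osgepl1* completed the 10 nearest, with r from 0.81 to 0.82. Of the 21 other border-associated macrophage genes 18 had a positive r with that mean, with a median of 0.55. So had 8 of the 11 homeostatic microglial genes (median 0.23), 8 of 8 monocyte genes (0.20) and 8 of 8 neutrophil genes (0.16). It was positive for 9 of 12 interferon-stimulated genes (0.06), 0 of 9 neuronal and glial genes (-0.24) and 0 of 6 endothelial genes (-0.27). The share of positive values over all genes was not computed.

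On GRCm39 the markers lie on 7 chromosomes and are protein-coding. *Mrc1* (chr2:14234151-14336926) holds the microRNA gene *Mir511* on the same strand, and *Siglec1* lies on the same chromosome at chr2:130911140-130928685. *Clec10a* (chr11:70047023-70061660) and *Cbr2* (chr11:120620312-120622940) share chromosome 11. The others are *Pf4* (chr5:90918479-90922110), *Cd163* (chr6:124281606-124307560), *Lyve1* (chr7:110448585-110462460), *F13a1* (chr13:37051152-37234277) and *Ms4a7* (chr19:11298403-11313510). *Cd163* overlaps the non-coding gene *Gm56975* and *F13a1* overlaps *Gm49144* and *Gm30489*, all on the opposite strand. The libraries were stranded, but whether the counting used the strand is not given in the sources used here, so reads of these partners could not be told apart from those of *Cd163* and *F13a1* if it did not.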

How the data were processed

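The authors made stranded total RNA libraries after ribosomal depletion, trimmed paired reads with cutadapt (0.17.4 in the submitters' processing notes) and aligned and counted them with STAR 2.7.9a on GRCm39 with Ensembl 108. The deposited values are raw counts per Ensembl gene, not normalized. GENCODE M39, on the same build, named 56236 of 56980 genes. Here counts were fitted with edgeR 4.0.16 in R 4.3.3: filterByExpr (minimum count 10, total 15), TMM, 1 quasi-likelihood fit of all 19 libraries in 4 groups, and Benjamini-Hochberg adjustment over 18739 genes. SEs are |log2FC| over the square root of F. Log2 CPM values for correlations used a prior count of 2. The fit was tested on simulated counts. Libraries of a group differed by more than counting error (chi-square). Alternatives were other filters, size factors and DESeq2 1.42.0, only the groups compared, the replicate number as a block, mitochondrial and ribosomal RNA genes left out, and each library left out in turn. All 9 markers are reported whatever their values. From the other list, the 2 rising and 2 falling genes of smallest p, averaged over genotypes, were named, and by likeness the nearest 3 genes per marker and the nearest 10 to their mean. The markers and lists were chosen with earlier results of these data known. P-values set a difference between groups against the spread between mice within groups. The main fit took that spread from all 4 groups and moderated it across genes.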

Additional observations from a re-analysis of the deposited data

Results flagged for a closer look

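In 36 sets of values, the 9 markers in each of the 4 groups, the highest and lowest library was compared with its neighbours by Dixon's ratio, which chance exceeds in about 1 set in 20. In 1 set it was exceeded. *F13a1* in wildtype LPS replicate 1 had 136 CPM, with 95.2 CPM in the next library, a ratio of 0.886 against a limit of 0.71. This library also had the highest *Siglec1*, *Cd163*, *Lyve1* and *Clec10a* of its group.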

How the results depend on the processing

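The counts of markers called for LPS against PBS in each genotype and averaged over them, for KO against wildtype mice with PBS and for the interaction stayed within 1.5 times under every alternative. Leaving out 1 library gave 5 to 7 lower markers in each genotype and in the average. The exception was KO against wildtype after LPS, where the 1 lower marker became 0 with the groups compared only and 0 to 1 with 1 library left out. None of the values that changed sign was called. For KO against wildtype after LPS, *Mrc1* was -0.0050 without a filter and -0.00036 with at least 10 counts in every library, and *Lyve1* was -0.010, -0.0027 and, with the groups compared only, -0.0041. With the replicate block *Lyve1* was -0.0049. For the interaction, *Cd163* was 0.012 and 0.019 with those filters, 0.035 with DESeq2's size factors, 0.034 with DESeq2 and 0.10 without the 4 libraries highest in neuronal and glial genes, where *F13a1* was 0.063 and *Clec10a* 0.076. *Pf4* was 0.016 with the size factors and 0.014 with DESeq2. With 1 library left out, KO against wildtype after LPS ranged over -0.0890 to 0.19 for *Mrc1*, -0.24 to 0.10 for *Cd163*, -0.25 to 0.19 for *Lyve1* and -0.24 to 0.23 for *Pf4*. The interaction ranged over -0.14 to 0.20 for *Cd163*, -0.0255 to 0.41 for *Lyve1*, -0.17 to 0.31 for *Pf4*, -0.18 to 0.0812 for *F13a1*, -0.14 to 0.21 for *Ms4a7*, -0.26 to 0.01 for *Cbr2* and -0.27 to 0.0540 for *Clec10a*. The cause was not tested. Same-numbered mice are different animals. Their deviations from the group means correlated from -0.04 to 0.58 between PBS and LPS mice of a genotype, above 0 in 8 of 9 pairs but not above 0.1 in every pair of either genotype, and from -0.57 to 0.30 between genotypes, so the numbers were not taken to pair them. The replicate block changed no count of markers.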
